A study of Mus musculus with 6 samples.

Results

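NRF2 is a transcription factor that turns on genes for antioxidant defence, and 10 genes of this pathway were examined in whole mouse lung with and without isthmin 1 (ISM1), a secreted protein. They were taken by gene name from a table of 54532 genes. These are *Nfe2l2*, which encodes NRF2 itself, its inhibitor *Keap1*, and 8 known target genes, *Nqo1*, *Hmox1*, *Gclc*, *Gclm*, *Txnrd1*, *Srxn1*, *Slc7a11* and *Gpx2*. Each name matched 1 row, and all 10 were among the 18689 genes with enough reads to test. Poly-A RNA was sequenced from the perfused lungs of 3 wild type (WT) C57BL/6J mice and 3 ISM1-/- mice, *Ism1* knockouts on the C57BL/6J background. All were 2 months old and untreated, so the values describe baseline lungs and not lungs under oxidant stress or allergen. WT animals came from a supplier while the ISM1-/- line was raised by the study itself, and effects of these origins and of genotype cannot be told apart. Each library came from 1 lung sample, and the p-values rest on the spread between these 3 samples per genotype. For each gene, edgeR, DESeq2 and limma draw this spread toward that of the other genes.

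In resting cells KEAP1 binds NRF2 and hands it to a CUL3 ubiquitin ligase for degradation. Oxidants and electrophiles modify cysteines of KEAP1, NRF2 then accumulates, pairs with a small MAF protein in the nucleus and binds antioxidant response elements (AREs) beside its target genes. Because this control acts on the protein, the *Nfe2l2* transcript is not a measure of NRF2 activity, and the activity is usually read from the targets. In the lung the targets protect epithelium and macrophages that face inhaled oxidants and smoke.

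The short DNA stretches below are where the ARE core was found near the start sites of these genes. They are shown because the ARE is the element that the targets share. RefSeq start site windows (GRCm38.p6, 250 bases before to 50 after the start) were given for 8 of the 10 genes, and none for *Hmox1* and *Gclc*. The letters searched on both strands were TGACNNNGC, the ARE core, which 12.4% of the 32851 windows of this length held, and TGANTCAGC, the form that NRF2 with a small MAF protein prefers, which 1.19% held. Capitals mark the match, each stretch reads 5′ to 3′ on the strand of its gene, and where the match lies on the other strand the capitals show its reverse complement.
*Nfe2l2*, ARE core, chr2:75704885-75704913, minus strand: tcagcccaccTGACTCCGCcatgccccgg
*Gclm*, ARE core on the other strand, chr3:122245413-122245441, plus strand: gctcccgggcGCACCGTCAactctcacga
*Txnrd1*, ARE core on the other strand, chr10:82859104-82859132, plus strand: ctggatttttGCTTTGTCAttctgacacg
*Srxn1*, ARE core on the other strand, chr2:152105542-152105570, plus strand: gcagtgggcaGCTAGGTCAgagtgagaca
*Srxn1*, NRF2 with small MAF form, chr2:152105469-152105497, plus strand: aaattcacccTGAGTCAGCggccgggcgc

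The *Srxn1* match to the NRF2 with small MAF form begins 45 bases before the start site, outside any annotated gene. It contains the AP-1 letters TGANTCA, which 7.81% of all windows held. The other *Srxn1* match lies in an exon of *Srxn1*. The *Gclm* match begins 134 bases before the start and overlaps no annotated gene. The *Txnrd1* match lies before one of its later start sites, inside the gene but in no exon. The *Nfe2l2* match begins 240 bases before the start and lies in an exon of the neighbouring gene *E030042O20Rik*. The windows of *Keap1*, *Nqo1*, *Slc7a11* and *Gpx2* held neither string, which says only that these letters are not in those windows. The 250 bases before the *Srxn1* start (chr2:152105274-152105523, plus strand) follow with the NRF2 with small MAF form and a second AP-1 string in capitals. Those before the *Nqo1* start (chr8:107403206-107403455, minus strand) are set beside them because *Nqo1* had the clearest difference between the genotypes.
*Srxn1*, upstream: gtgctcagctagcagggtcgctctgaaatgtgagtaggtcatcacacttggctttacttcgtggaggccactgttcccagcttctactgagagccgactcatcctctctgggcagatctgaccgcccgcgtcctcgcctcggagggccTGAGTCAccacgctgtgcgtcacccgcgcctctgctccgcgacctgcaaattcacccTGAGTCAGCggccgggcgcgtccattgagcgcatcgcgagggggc
*Nqo1*, upstream: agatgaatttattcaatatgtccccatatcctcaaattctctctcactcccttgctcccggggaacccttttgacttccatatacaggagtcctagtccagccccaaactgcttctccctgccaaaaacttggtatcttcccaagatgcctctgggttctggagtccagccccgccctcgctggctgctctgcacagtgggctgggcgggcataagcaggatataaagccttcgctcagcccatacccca

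The 6 libraries held between 37606133 and 42345042 counts, with scaling factors near 1 in all of them. Lung is a mixture, and in bulk RNA fewer cells of a type and less RNA per cell cannot be told apart. Levels are given below as CPM, counts scaled by library depth with TMM factors, and folds as ISM1-/- over WT on the log2 scale. The targeted gene, *Ism1*, stood at 78.8 ± 2.88 CPM in WT and 69.0 ± 5.72 CPM in ISM1-/- lungs (SD, n = 3 each; log2 fold change -0.19, adjusted p = 0.217, edgeR). A count per gene does not show which exons carry the reads, so the *Ism1* count is no check of the genotype labels, on which every direction below rests. In these lungs the adjusted p was below 0.1, the threshold used for a call, for 4.72% of all tested genes. With edgeR 0 of the 10 NRF2 genes were called, and 0 with a 2-fold change as well, which 0.567% of all tested genes reached. With DESeq2 7.46% of all genes with an adjusted p were called and again 0 of the 10.

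WT replicate 1 stood apart in heart muscle genes. Its 9 cardiomyocyte markers summed to 1655 CPM, against 544 and 648 CPM in the other WT lungs and 298 to 576 CPM in ISM1-/-. Brown adipocyte markers summed to 12.8 CPM there and to 1.23 to 2.51 CPM in the rest. This library was also lowest in the 5 alveolar type 1 markers, at 2539 CPM. They summed to 3428 and 3503 CPM in the other WT lungs and to 3373 to 3591 CPM in ISM1-/-. Their ISM1-/- level was 110% of WT with all libraries and 101% without WT replicate 1. With all libraries 1 of them, *Rtkn2*, was called higher by edgeR (adjusted p = 0.0715) and by DESeq2, and limma called 0. *Rtkn2* was at 222 CPM in WT replicate 1, 298 and 307 CPM in the other WT lungs and 358 to 399 CPM in ISM1-/-. Without this library, edgeR called 0 of the 10 genes, where it called 671 of all 18533 genes tested. The lowest adjusted p among the 10 was then 0.193 (edgeR).

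Neither the activator nor its inhibitor passed the test. *Nfe2l2* (chromosome 2, 75675513 to 75704641, minus strand) was at 138, 148 and 146 CPM in the WT lungs and at 142, 147 and 152 CPM in the ISM1-/- lungs. The groups overlapped, and the ISM1-/- mean was 102% of WT with a 95% interval of 93.5 to 112% (log2 fold change 0.03, SE 0.06, adjusted p = 0.859, edgeR). *Keap1* (chromosome 9, 21229730 to 21239361, minus strand), the adaptor that holds NRF2, was at 70.6, 72.9 and 71.4 CPM in WT and at 74.1, 70.4 and 61.4 CPM in ISM1-/-. ISM1-/- replicate 3 was the lowest of all 6 and replicate 1 the highest, so the groups overlapped (95.8% of WT, interval 85.4 to 107%, adjusted p = 0.758, edgeR). *Gm16754*, an antisense gene over *Keap1*, had 82 to 158 counts against 2397 to 3153 for *Keap1*. The ratio of *Nfe2l2* to *Keap1* per transcript length was 2.54 ± 0.0597 in WT and 2.74 ± 0.370 in ISM1-/-, and an exact two-sided permutation test gave p = 0.5, where 0.1 is the smallest p that 3 against 3 allows.

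**Figure D1:**
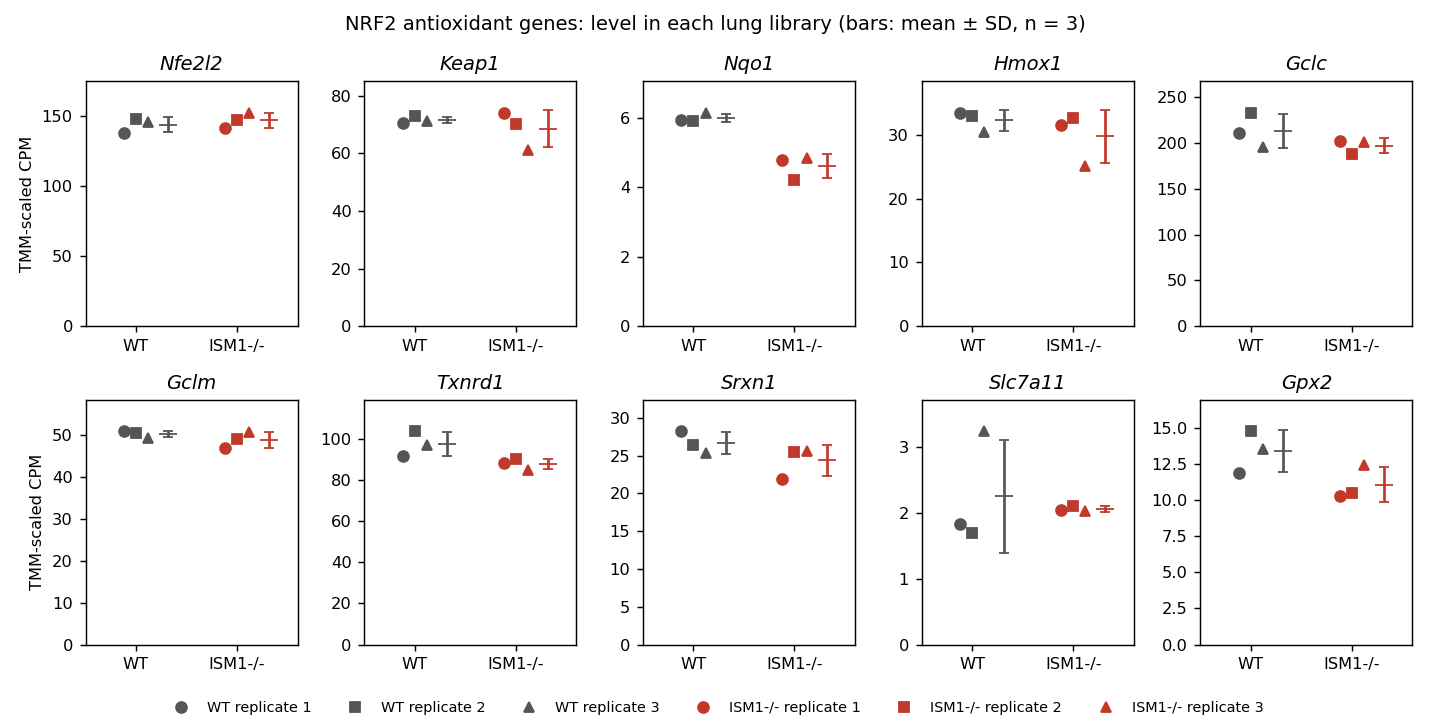
Level of each of the 10 genes in TMM-scaled CPM, 1 panel per gene with its own axis from 0, in the 3 WT and 3 ISM1-/- lungs, with 1 point per lung and bars for mean ± SD. The groups of *Nqo1* and *Txnrd1* do not overlap, and those of the other genes do.

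The glutathione genes held both the highest and the lowest level per transcript length of the 10, and none of the 4 was called. *Gclc* (chromosome 9, 77754535 to 77794485, plus strand), the catalytic subunit of glutamate-cysteine ligase, the rate-limiting enzyme of glutathione synthesis, was at 211, 233 and 196 CPM in WT and at 203, 188 and 201 CPM in ISM1-/-. In ISM1-/- replicate 2 was below the WT range and the others within it (92.5% of WT, interval 82.8 to 103%, adjusted p = 0.501, edgeR). Its modifier subunit *Gclm* (chromosome 3, 122245557 to 122270732, plus strand) was at 50.9, 50.6 and 49.3 CPM in WT and at 46.9, 49.2 and 50.7 CPM in ISM1-/-. It was the steadiest of the 10 genes, with a coefficient of variation (CV) within genotype of 2.95%, and the ISM1-/- mean was 97.3% of WT (interval 88.7 to 107%, adjusted p = 0.821, edgeR). The ratio of catalytic to modifier subunit per transcript length was 3.89 ± 0.299 in WT and 3.70 ± 0.234 in ISM1-/- (exact permutation p = 0.6). That ratio depends on the length used, and was 6.91 over all libraries with the gene lengths listed in the table.

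*Slc7a11* (chromosome 3, 49892526 to 50443614, minus strand), the light chain of the transporter that imports cystine for glutathione, had the lowest level. It was read from 69, 70 and 125 counts in the WT libraries, against 87, 80 and 79 in ISM1-/-. WT replicate 3 stood above the other libraries, which were close to each other, and the CV within genotype was 26.9% where counting error alone gives 10.8%. The log2 fold change was -0.13 with an interval of 62.1 to 135% of WT (adjusted p = 0.871, edgeR), and it was 0.23 without WT replicate 3, so no direction can be read. *Gpx2* (chromosome 12, 76792333 to 76795554, minus strand), the glutathione peroxidase of epithelial cells, was covered by 450, 614 and 525 counts in the WT libraries, against 439, 399 and 487 in ISM1-/-. In CPM the WT lungs ranged from 11.9 to 14.8 and the ISM1-/- lungs from 10.3 to 12.5, so the groups overlapped by the lowest WT and the highest ISM1-/- library. The ISM1-/- mean was 82.7% of WT (interval 69.4 to 98.3%), with an unadjusted p of 0.0347 and an adjusted p of 0.264 from edgeR. *Gpx2* lies within *Fntb* on the other strand, which had 553 to 737 counts and a log2 fold change of -0.04, and whether the counting used strand is not given in the sources used here.

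Both genes of the thioredoxin branch had a lower mean in ISM1-/-, and neither was called. *Txnrd1* (chromosome 10, 82833951 to 82897712, plus strand), the cytosolic thioredoxin reductase, was at 92.0, 104 and 97.4 CPM in WT and at 88.6, 90.1 and 85.2 CPM in ISM1-/-. Every ISM1-/- lung was below every WT lung, by a small margin, and the mean was 90.0% of WT (interval 81.7 to 99.1%; log2 fold change -0.15, SE 0.06, unadjusted p = 0.0355, adjusted p = 0.267, edgeR). *Srxn1* (chromosome 2, 152105516 to 152111376, plus strand), sulfiredoxin, which repairs overoxidised peroxiredoxins and whose upstream sequence is printed above, was at 28.2, 26.4 and 25.4 CPM in WT and at 22.0, 25.5 and 25.6 CPM in ISM1-/-. ISM1-/- replicate 1 was the lowest and the other libraries overlapped (91.4% of WT, interval 80.7 to 103%, adjusted p = 0.483, edgeR).

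*Nqo1* (chromosome 8, 107388225 to 107403206, minus strand), the quinone reductase most often used as a readout of NRF2, was read from 224, 246 and 238 counts in the WT libraries, and from 204, 160 and 189 in the ISM1-/- ones. That is 5.94, 5.92 and 6.15 CPM against 4.79, 4.21 and 4.84 CPM, so all 3 ISM1-/- lungs were below all 3 WT lungs. The ISM1-/- mean of 4.62 ± 0.349 CPM was 76.9% of the WT mean of 6.002 ± 0.127 CPM (interval 64.1 to 92.4%). *Nqo1* had the largest difference of the 10 genes and the lowest p (log2 fold change -0.38, SE 0.12, unadjusted p = 0.00961), and its adjusted p of 0.142 missed the threshold (edgeR). The same difference had an adjusted p of 0.170 by DESeq2, and from 0.111 to 0.342 with each library left out in turn. Its CV within genotype, 5.56%, was below the 6.90% that counting error alone gives at its mean count.

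*Hmox1* (chromosome 8, 75093621 to 75100589, plus strand), heme oxygenase 1, which breaks heme down to biliverdin, iron and carbon monoxide, was at 33.4, 33.0 and 30.4 CPM in WT. In ISM1-/- it was at 31.5, 32.7 and 25.0 CPM, with replicate 3 below the rest and the other libraries among the WT values (92.1% of WT, interval 79.1 to 107%, adjusted p = 0.629, edgeR).

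**Figure D2:**
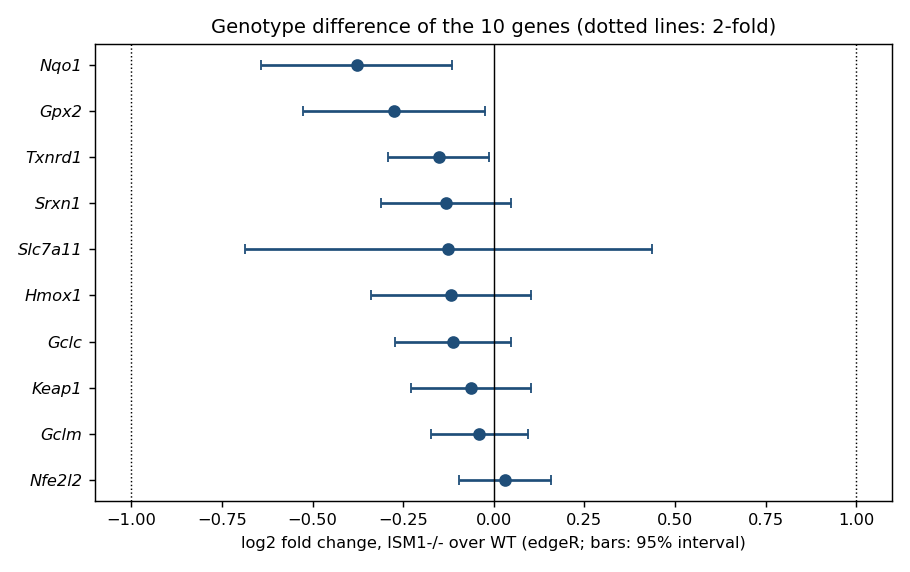
Log2 fold change of ISM1-/- over WT for the 10 genes, with points for the edgeR estimate and bars for its 95% interval. The intervals of *Nqo1*, *Gpx2* and *Txnrd1* lie below 0, and the other intervals include 0.

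Over the 10 genes, 0 passed an adjusted p of 0.1 with edgeR, and 0 with DESeq2 or with limma on FPKM. At an unadjusted p below 0.05 edgeR gave 3, *Nqo1*, *Gpx2* and *Txnrd1*, against 15.8% of all tested genes by edgeR. DESeq2 and limma also gave 3, but at this threshold the share of all genes was taken for edgeR only. For limma it was not taken for calls either, here or in the lists below. The genotypes did not overlap for 2 genes, both lower in ISM1-/-, where 21.6% of all tested genes did not overlap and 12.3% did so with ISM1-/- lower. The mean was lower in ISM1-/- for 9 genes, all but *Nfe2l2*, and for 48.8% of all tested genes. The median log2 fold change of the 10 genes was -0.12 against 0.00430 over all genes. A p that misses the threshold does not show equal levels, but each interval lay inside a 2-fold change in either direction, from 62.1% at the low end to 135% at the high end, both at *Slc7a11*. By library, the highest value was in WT replicate 1 for 3 genes, WT replicate 2 for 3, WT replicate 3 for 2, and ISM1-/- replicates 1 and 3 for 1 each. The lowest was in ISM1-/- replicate 1 for 3, replicate 2 for 2 and replicate 3 for 3, and in WT replicates 1 and 2 for 1 each. Without WT replicate 3 the genotypes did not overlap for 6 of the 10 genes, and without ISM1-/- replicate 3 for 4. With fewer libraries non-overlap is more frequent in general, and 31.0% and 37.0% of all tested genes did not overlap in these comparisons.

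Levels can be compared between genes only per transcript length, for which the deposited FPKM (fragments scaled by transcript length and by library depth) served. *Gclc* was highest at 131 FPKM, above 96.1% of all tested genes, and *Nfe2l2* followed at 74.1 FPKM, above 91.3%. *Txnrd1* was at 40.9, *Gclm* at 34.4, *Keap1* at 28.2, *Hmox1* at 26.5 and *Srxn1* at 21.1 FPKM. The lowest were *Gpx2* at 7.02, *Nqo1* at 3.42 and *Slc7a11* at 0.600 FPKM, the last above only 11.6% of tested genes. *Keap1* and *Hmox1* overlapped across libraries, as did *Hmox1* and *Srxn1*, and no other neighbours in the order did. With the gene lengths listed in the table instead, 5 of the 10 positions differed, and *Gclc* and *Nfe2l2* were again the first and the next.

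**Figure D3:**
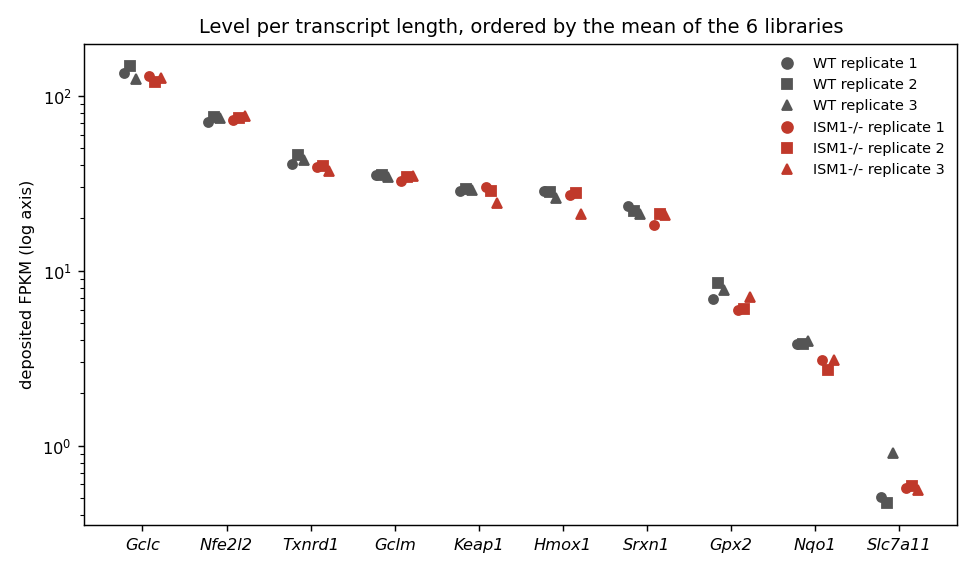
Deposited FPKM of the 10 genes on a log axis, ordered by their mean over all 6 lungs, with 1 point per lung, its colour the genotype and its shape the replicate. *Gclc* stands at 131 and *Slc7a11* at 0.600, and the only neighbours that overlap are *Keap1* with *Hmox1* and *Hmox1* with *Srxn1*.

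Marker genes of several cell types moved with genotype. The summed level of 5 club cell markers, of the secretory cells of the airway lining, was 26172 to 28091 CPM in WT and 17621 to 21325 CPM in ISM1-/-, or 71.8% of WT, and 4 of them were called lower by edgeR and by DESeq2 and 2 by limma. Of the 6 ciliated cell markers 3 were called lower by edgeR, 5 by DESeq2 and 2 by limma, and their sum was 681 to 779 CPM in WT and 606 to 627 CPM in ISM1-/-, or 84.2%. The 6 alveolar type 2 markers, at 96.7% of WT, had 0 calls by edgeR, DESeq2 or limma. By edgeR 1 gene (16.7%) had an unadjusted p below 0.05, against 15.8% of all tested genes. A lower mean was found for 5 of the 6 (83.3%), against 48.8% of all tested genes. The genotypes did not overlap for 2 (33.3%), against 21.6% of all tested genes. The 8 alveolar macrophage markers, at 92.7%, had 0 calls by any of these tools and 2 genes (25%) at an unadjusted p below 0.05 by edgeR. Of the 8, 7 (87.5%) had a lower mean, all but *Car4* at 103% of WT, against 48.8% of all tested genes. Their median log2 fold change was -0.16. Neutrophil markers were at 207% of WT, with sums of 44.3 to 58.6 CPM in WT and 73.9 to 129 CPM in ISM1-/-. Of the 6 that could be tested, edgeR and DESeq2 each called 4 higher and limma 3. *S100a8*, *S100a9* and *Cxcr2* were called by each tool, *Csf3r* by edgeR only and *Retnlg* by DESeq2 only. The 7 adipocyte markers were at 47.4% of WT, and 6 were called lower by edgeR and by limma and 5 by DESeq2. The call that DESeq2 lacked is *Lep*, at 31 to 37 counts in WT and 2 to 13 in ISM1-/-. *Lep* passed the filter only through the WT libraries, so its call rests on the group where it was higher. No gene of these lists was at 0 in all libraries. The *Nqo1* mean, at 76.9% of WT, lay between the percentages of the summed club cell and ciliated cell markers. Each sum mostly follows its most abundant gene, *Scgb1a1* for club cells (70.1% of WT) and *Tppp3* for ciliated cells (92.6%). The median log2 fold change of the tested genes was -0.37 for club cell and -0.44 for ciliated cell markers, the reverse order. The part of these markers in the values of *Nqo1*, *Gpx2* and *Txnrd1* was not tested.

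**Figure D4:**
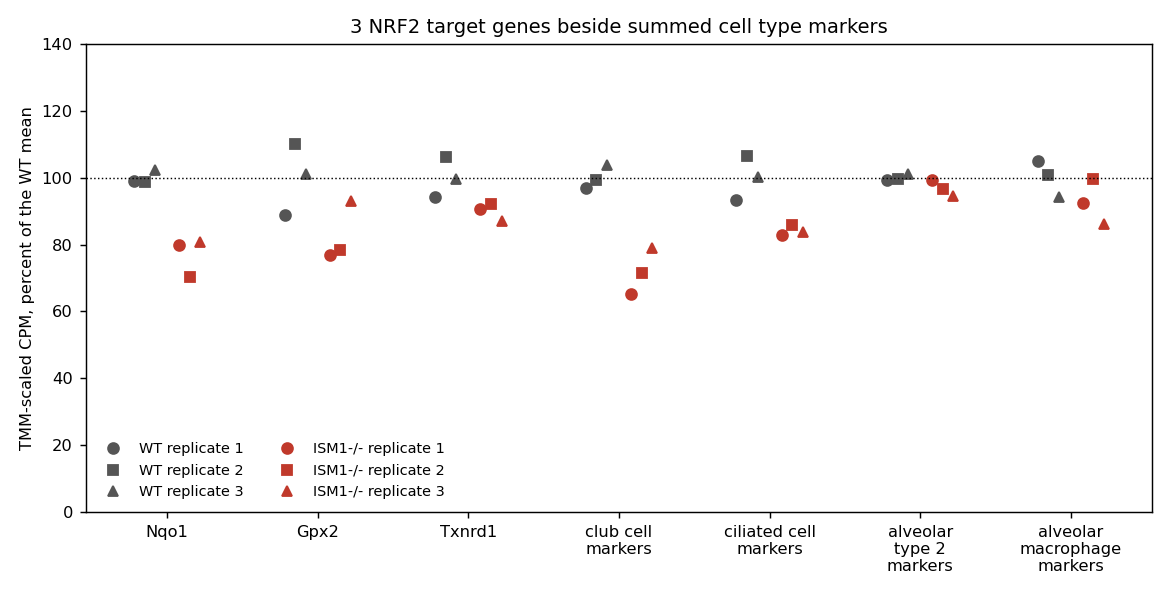
Level in each lung as a percent of the WT mean for *Nqo1*, *Gpx2* and *Txnrd1* and for the summed markers of 4 cell types, with 1 point per lung. The *Nqo1* points of the ISM1-/- lungs lie at 70.2 to 80.6%, and the club cell marker points at 65.2 to 78.9%. Among these lungs *Nqo1* was lowest in replicate 2 and the club cell markers in replicate 1.

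The wider pathway was read from 69 more genes in 7 lists, of which 68 could be tested and *Gsta1*, at 0 to 5 counts, could not. Of these, 1 was called higher in ISM1-/- and 3 lower, against 1.38% and 3.34% of all tested genes, and 0 were called at 2-fold by edgeR. DESeq2 called 1 higher and 4 lower, adding *Gsta4*, and limma on FPKM 0 higher and 4 lower, without *Ephx1*. At an unadjusted p below 0.05 there were 14 of 68, or 20.6%, against 15.8% of all tested genes. The genotypes did not overlap for 20 of the 68, or 29.4%, with 15 of them lower in ISM1-/-, against 21.6% and 12.3% of all tested genes. *Gstm3*, at 6 to 25 counts, is among both the 14 and the 15. It passed the filter only through WT replicate 2, at 0.602 CPM, so its place there rests on the group where it was higher. The median log2 fold change of the 68 was -0.05, and 46 (67.6%) had a lower mean, against 48.8% of all tested genes.

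Among the 12 partners and regulators, *Nfe2l3*, a relative of NRF2 held at the endoplasmic reticulum, was the only call. Its counts were 209, 190 and 200 in WT against 145, 105 and 131 in ISM1-/-, so all ISM1-/- lungs were lower (log2 fold change -0.68, SE 0.15, adjusted p = 0.0463, edgeR). *Bach2*, a repressor best known from B cells, was next in size, with a log2 fold change of 0.28 and an adjusted p of 0.197. The other 11 genes of this list gave no call by edgeR, DESeq2 or limma.

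The 17 glutathione genes gave 0 calls by edgeR, with 4 at an unadjusted p below 0.05 (23.5%, against 15.8% of all tested genes), while DESeq2 and limma each called 1, *Gsta4*, a glutathione transferase. Of the 17, 15 (88.2%) had a lower mean, against 48.8% of all tested genes, with a median log2 fold change of -0.08. The largest were *Ggt1*, which splits extracellular glutathione, at 0.43 (adjusted p = 0.400) and glutaredoxin *Glrx* at -0.24 (adjusted p = 0.152, edgeR). The 11 thioredoxin and peroxiredoxin genes gave 0 calls by edgeR, DESeq2 or limma, with 1 by edgeR at an unadjusted p below 0.05 (9.09%, against 15.8% of all tested genes). There *Txnip*, an inhibitor of thioredoxin, had a log2 fold change of 0.23 (adjusted p = 0.248) and *Prdx5* of -0.13 (adjusted p = 0.368, edgeR).

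The 6 genes listed under the supply of NADPH, the reducing power for both branches, all had a lower mean in ISM1-/-. Of all tested genes 48.8% did, and 1 of the 6 passed the test. Malic enzyme *Me1* fell from 91.7 ± 3.58 to 78.0 ± 2.96 CPM (log2 fold change -0.23, SE 0.06, adjusted p = 0.0773, edgeR), with no overlap of the genotypes. *Idh1*, the cytosolic isocitrate dehydrogenase, had a log2 fold change of -0.20 (adjusted p = 0.182), and 3 of the 6 had an unadjusted p below 0.05, where 15.8% of all tested genes did.

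The 7 heme and iron genes had 0 calls by edgeR, DESeq2 or limma and 0 at an unadjusted p below 0.05, with *Slc40a1*, the iron exporter ferroportin, at 0.21 (adjusted p = 0.535) and ferritin *Fth1* at -0.12 (adjusted p = 0.393). The 4 superoxide dismutase and catalase genes also had 0 calls by these tools and 1 of 4 by edgeR at an unadjusted p below 0.05. Of all tested genes 15.8% had such a p. In this list *Cat* was at -0.12 (adjusted p = 0.307) and the extracellular *Sod3* at 0.09 (adjusted p = 0.665, edgeR).

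Of the other reported targets, 11 were tested and calls went both ways. Aldehyde oxidase *Aox1* went from 3053, 3315 and 2837 counts in the WT libraries to 2648, 2358 and 2461 in ISM1-/-, and fell with a log2 fold change of -0.32 (SE 0.06, adjusted p = 0.0298, edgeR). *Ephx1*, the microsomal epoxide hydrolase, went from 6028, 7289 and 6376 counts to 8053, 7399 and 7619, and rose with a log2 fold change of 0.21 (SE 0.06, adjusted p = 0.0925, edgeR). Each of the 4 calls was lost when certain libraries were left out. *Aox1* kept its call in 3 of the 6 fits that leave out a library (WT replicate 1, WT replicate 3 and ISM1-/- replicate 3). *Nfe2l3*, *Me1* and *Ephx1* kept theirs in 1 fit each, the one without ISM1-/- replicate 3, with adjusted p-values up to 0.160, 0.251 and 0.250 in the others.

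**Figure D5:**
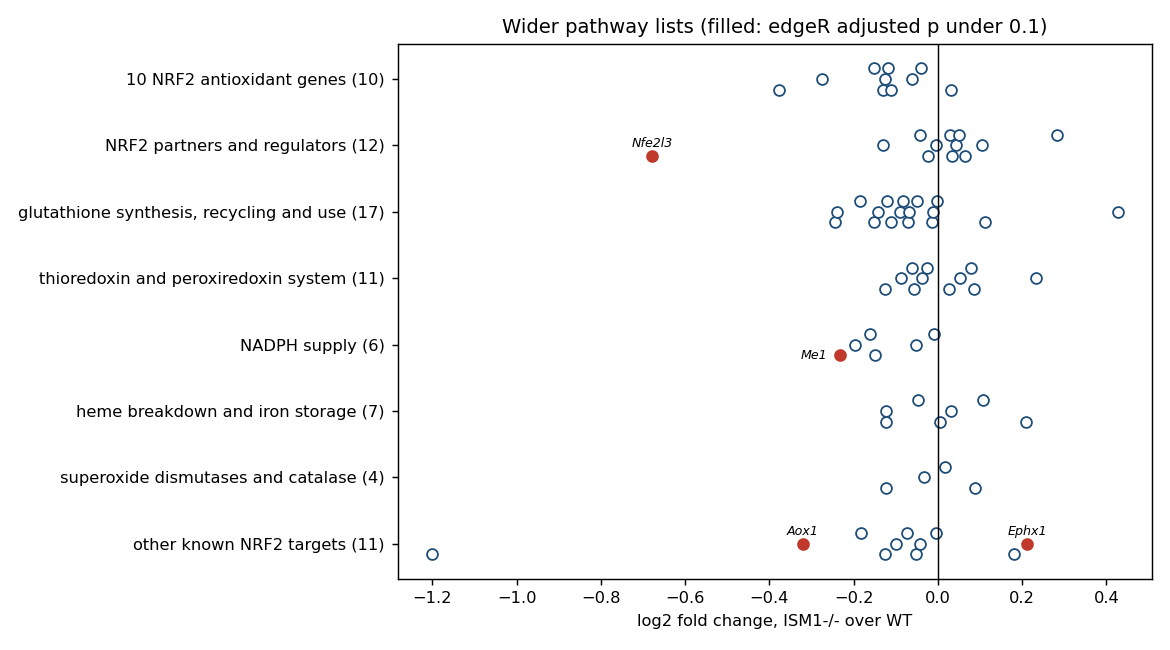
Log2 fold change of ISM1-/- over WT (edgeR) for the 10 genes and the 68 tested genes of the wider lists, 1 row per list (number of genes in brackets, points spread vertically for sight), with genes at an adjusted p below 0.1 filled and named. *Nfe2l3*, *Me1* and *Aox1* lie left of 0 and *Ephx1* right of it, and the open point farthest left is *Gstm3*, at -1.20 with a mean near the detection filter.

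*Nqo1* is also a known target of the aryl hydrocarbon receptor, encoded by *Ahr*. *Cyp1a1*, a xenobiotic-metabolising cytochrome P450 and the standard readout of that receptor, rose from 6.67 ± 2.03 CPM in WT to 19.6 ± 2.30 CPM in ISM1-/- (log2 fold change 1.55, SE 0.19, adjusted p = 0.0102, edgeR). *Ahr* itself was at 134 ± 23.7 and 145 ± 14.4 CPM (log2 fold change 0.11, adjusted p = 0.711, edgeR). A part of this receptor in the *Nqo1* values, which did not pass the test, was not tested.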

How the data were processed

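Per the study's methods, RNA came from perfused whole lungs, poly-A libraries were made to keep strand and sequenced as paired reads, and reads were aligned with STAR to GRCm38 (mm10). The counting program, annotation release and strand setting are not given in the sources used here. The authors deposited raw read counts per gene, and beside them FPKM, which the authors scaled by depth and transcript length.

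Counts were scaled by TMM, a gene was tested where 1 library or more reached 0.5 CPM, and the quasi-likelihood test of edgeR 4.0.16 (R 4.3.3) compared 3 ISM1-/- with 3 WT libraries, with Benjamini-Hochberg adjustment over all 18689 genes. A gene was called at an adjusted p below 0.1. DESeq2 1.42.0, limma 3.58.1 on log2(FPKM + 0.1), other scalings and filters, and leaving out each library were alternatives. In each wider list, called genes and the 2 largest log2 fold changes at a mean of 1 CPM or more were named. The statistics were tested on simulated data. Intervals of 95% are not adjusted for the number of genes. The genes and lists were chosen with earlier results of these data known. Motifs were searched in RefSeq windows (GRCm38.p6) and annotated with GENCODE.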

Additional observations from a re-analysis of the deposited data

How the results depend on the processing

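No alternative called any of the 10 genes (0 with each library left out in turn), and 138 of 140 values for single genes kept their direction and side of the threshold. The other 2 turned direction when 1 library was left out, *Keap1* to a log2 fold change of 0.014 without ISM1-/- replicate 3 (range -0.12 to 0.014) and *Slc7a11* to 0.23 without WT replicate 3 (range -0.30 to 0.23). Leaving out libraries gave 2 to 6 of the 10 genes without overlap (28.3 to 37.0% of all tested genes), 0 to 1 wider pathway genes called higher and 0 to 8 lower, and 150 to 1470 calls over all genes, of which 31 to 188 reached 2-fold, against 882 and 106 with all libraries. Without a filter beyond a count above 0 there were 3 wider pathway genes called higher, 1632 calls over all genes and 293 at 2-fold, and with a mean above 2 CPM 37 at 2-fold. At an adjusted p of 0.05 there were 455 calls over all genes and 0 wider pathway genes called higher. The cause was not tested. The order by level differed at 2 positions with FPKM of WT replicate 1 alone, and at 5 with the listed gene lengths, an alternative chosen after seeing the data.

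The replicate numbers name different animals and did not pair the libraries (correlations of the deviations of same-numbered libraries -0.0208, 0.0326 and 0.0605, with 3 of 6 libraries correlating best with their own number). With the replicate number as a block, 2 wider pathway genes were called higher and 0 of the 10 NRF2 genes were called.

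At these depths *Slc7a11*, with 69 to 125 counts, and *Nqo1*, with 160 to 246, have the widest counting error.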
